A study of Rattus norvegicus with 192 samples.

Results

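The kidney arrays of rats that breathed air were compared with the arrays of 5 other tissues of air-breathing rats, to describe the transcripts that mark rat kidney. The arrays were chosen by their titles: 16 of the 192 arrays of the series are kidney Air arrays, and the other 80 Air arrays are 15 of blood, 16 of brain stem, 16 of heart, 16 of lung and 17 of olfactory bulb. The animals were adult male Sprague-Dawley rats, an outbred strain with no engineered allele named in the labels. The Air rats were kept in a whole-body chamber at 0 ppm phosphine for 25 min, and 4 kidneys were taken at each of 1, 3, 6 and 24 h afterwards. The matching PH3 arrays come from rats that breathed 660 ppm phosphine, a toxic fumigant gas, for 25 min, a product of 16500 ppm × min that the labels give as 0.71 of the LCt50, the median lethal product. All rats, Air included, received ketamine and xylazine before they were bled and tissue was taken. Each kidney array is a ground whole-tissue sample of 1 rat, so that in every value fewer cells of a type and less RNA per cell cannot be told apart. Blood was drawn from the heart and its RNA was isolated with a kit of its own, so the blood contrast holds both the tissue and the kit.

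The kidney filters plasma in glomeruli, whose podocytes hold back protein, and then recovers or secretes solutes along a chain of tubule segments. The proximal tubule takes back sugars, amino acids, phosphate and filtered proteins through a brush border, secretes organic ions and makes glucose. The thick ascending limb, distal tubule and collecting duct then set salt, calcium, acid and water balance under hormones such as aldosterone and vasopressin. Each segment is known by its own carriers and channels, which is why a whole kidney can be read segment by segment.

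The values are log2 intensities after robust multi-array averaging (RMA), and they ran from 2.038 to 14.18 over all arrays. A difference below is the mean of the 16 kidneys minus the mean of the 5 other tissues' means, in log2 units with its standard error (SE) from limma, so that each tissue weighs the same. The gap is the kidney mean minus the highest other tissue mean. A probe set is called kidney-marking where the difference is at least 2, the gap at least 1, all 5 pairwise contrasts are above 0 at an adjusted p under 0.05 (limma, two-sided, Benjamini-Hochberg over 31042 probe sets), and the lowest kidney array lies above the highest other Air array. Kidney-low is the mirror of this.

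Of 31042 probe sets, 10309 (33.2%) were higher and 14163 (45.6%) lower in kidney than in the mean of the other tissues. Kidney-marking probe sets numbered 798 (2.57%), and 52 (0.168%) were kidney-low. The marking set was thus much the larger, while lower calls outnumbered higher ones. That excess varied with the tissue and the scaling. Without blood 11285 were higher and 11920 lower, and without brain stem 10354 and 15026. Centring each array on its median gave 11173 and 12053, and quantile normalization 9296 and 13011. Against single tissues, higher and lower shares were 40.7% and 51% for blood, 30.1% and 34.1% for heart, and 29.9% and 32.4% for lung. For brain stem they were 40.1% and 30.9%, and for olfactory bulb 41.3% and 32.4%. The median difference over all 13438 named genes, each taken at its brightest probe set, was 0.03. By that choice 3.74% of genes marked the kidney, 5893 (43.9%) were higher and 5249 (39.1%) lower. Among the marking probe sets the difference ran from 2.011 to 9.73 with a median of 3.64, and 105 had a gap of 5 or more. At the limit of 2, Exoc6 (difference 2.011) and Tprkb (2.016) lie just inside, and Dera (1.998) and Slc25a35 (1.997) just outside. At the gap limit of 1, Anpep (1.001) lies inside, and Igsf5 (0.9973) and Slc1a1 (0.9787) outside.

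Every kidney array resembled the other kidneys more than any other tissue: the lowest correlation between 2 kidneys was 0.9823 over all probe sets, and the highest with another tissue was 0.8643. The index of 3′ over 5′ probe signal, a sign of RNA length, had a median of 0.33 in kidney (0.21 to 0.40), between 0.185 in lung and 0.443 in olfactory bulb. Some libraries carried transcripts of liver, an organ not among those sampled. The median of 12 liver markers was above 6 in 9 Air arrays, namely 3 kidneys, 2 hearts, 1 brain stem and 3 olfactory bulbs. The highest was the heart of Rat340 at 24 h, at 12.16 against 8.98 for the highest kidney (Rat345 at 1 h). In that heart Alb, serum albumin, read 13.83 against 2.88 to 11.77 in the other 15 hearts. Its readings of Hao2 (10.40), Bhmt2 (10.88), Fbp1 (11.11), Cyp2c23 (11.70) and Hnf4a (9.03) were the highest of any array outside kidney, while the second highest were 6.70, 5.71, 7.15, 7.90 and 5.17. Without this array 860 probe sets marked the kidney, all 798 among them, and without all 9 arrays 894 did, 793 of them shared. The part of liver transcripts in the values of these 3 kidneys was not tested. No reading of Umod, the kidney's thick ascending limb protein, exceeded 4.96 in any of the 80 other arrays. Other kidney transcripts rose together in some of them. In brain stem, Kap, Hao2 and Slc7a13 read 6.83, 6.08 and 5.23 in Rat328 and 6.35, 5.47 and 5.27 in Rat376. In Rat352 they read 3.07, 3.20 and 3.10. The olfactory bulb of Rat507 read 6.88, 6.22 and 5.20. The source of these readings was not tested.

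The 10 genes with the largest gaps came from several segments. Kap, an androgen-regulated protein of the proximal tubule, read 13.54 at the lowest, 13.60 at the median and 13.71 at the highest over the 16 kidneys. The highest other Air array was an olfactory bulb at 6.88, and the difference was 9.73 ± 0.20 (adjusted p = 1.7e-66, limma). Its highest other tissue was brain stem, with a mean of 4.70. Umod, uromodulin, the most abundant protein of normal urine, read 12.49, 12.65 and 12.83 against at most 4.96 elsewhere, a difference of 9.43 ± 0.08. Hao2, a peroxisomal hydroxyacid oxidase, read 12.91, 13.15 and 13.25, a difference of 9.06 ± 0.29. The nearest other array was the Rat340 heart at 10.40, and the next was a brain stem at 6.70. Slc7a13, an aspartate and glutamate carrier of the late proximal tubule, read 11.95, 12.34 and 12.51 against at most 5.40 elsewhere. Cltrn, collectrin, which brings amino acid carriers to the brush border, read 11.43, 12.02 and 12.46 against at most 5.20. The kidneys and the other arrays stayed apart by more than 6 log2 units in both.

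The other 5 of the 10 were Cyp4a8, Bhmt2, Slc12a1, Acsm2 and Slco1a1, with differences from 7.62 to 8.58. Cyp4a8 is a fatty acid hydroxylase, and the neighbouring Cyp4a genes are close copies, so probes may be shared among them. Bhmt2, a methyltransferase that remakes methionine, read 11.64 to 11.96 in kidney, 10.88 in the Rat340 heart and at most 5.71 elsewhere. Slc12a1 is the sodium, potassium and chloride carrier that loop diuretics block, at 10.68 to 11.50 in kidney and at most 3.62 elsewhere. Slco1a1, an organic anion carrier with near copies beside it, read 8.37 in the Rat340 heart against 10.31 to 11.27 in kidney. In PH3 rats all 10 met the marking rule too, with differences from 7.43 to 9.69.

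**Figure D1:**
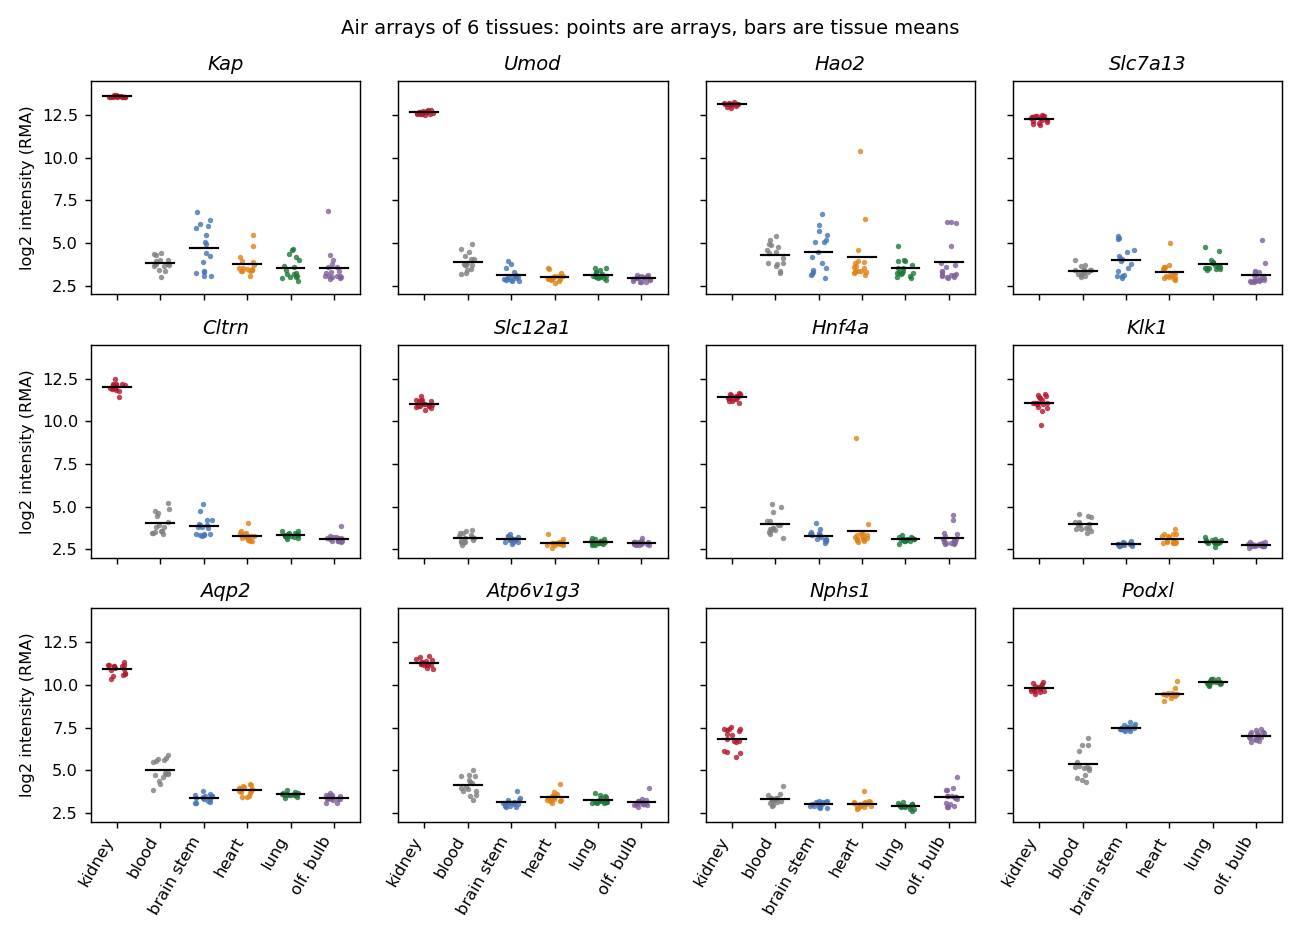
Log2 intensity (RMA) of 12 genes in the 96 Air arrays; points are arrays, bars are tissue means, and the horizontal spread within a tissue is only for display. Kidney sits above every other array for 11 genes, from Kap at 13.54 to 13.71 down to Nphs1 at 5.776 to 7.559, while the Podxl mean of 9.81 in kidney lies under the 10.16 of lung.

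The PH3 arrays, from other rats, were not used to choose the 798 probe sets. All 798 were higher in kidney there (33% of all probe sets were), and 731 (91.6%) met the whole marking rule, against 2.63% of all probe sets. The lowest difference among the 798 in the PH3 arrays was 1.597, and the median absolute shift from Air to PH3 was 0.075. The largest shifts were in Gdf15, a stress-induced cytokine (3.03 in Air, 4.22 in PH3 rats), Akr1c1 (6.65 and 5.79), A4galt (3.99 and 3.11) and Igfbp1, which binds insulin-like growth factors (5.16 and 5.98). Whether the exposure changed these was not tested here. All 52 kidney-low probe sets were lower there (45.8% of all were), and 41 met the mirror rule in PH3 arrays (0.177% of all did).

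**Figure D2:**
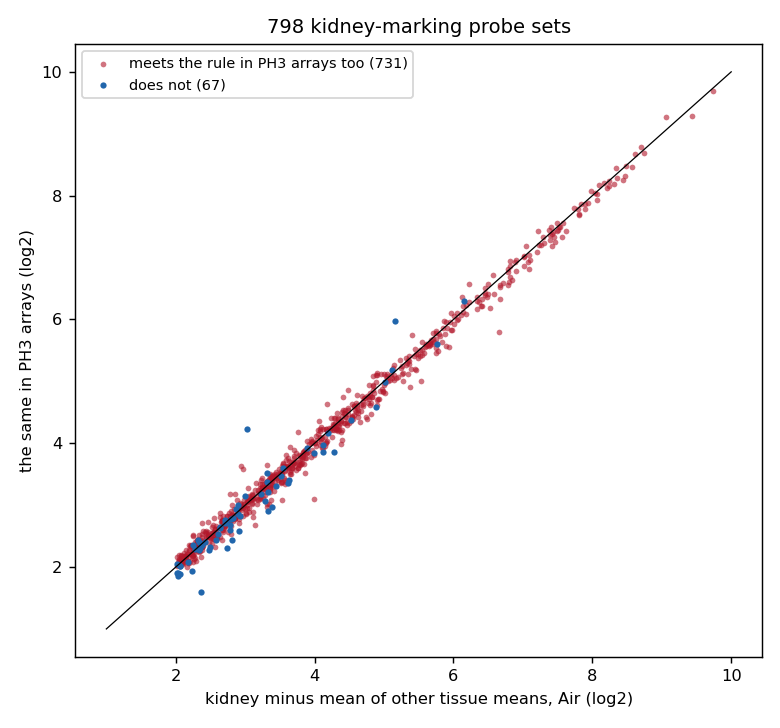
Kidney minus the mean of the 5 other tissue means in PH3 arrays (vertical, log2) against Air arrays (horizontal, log2) for the 798 kidney-marking probe sets, with the line of equality. The 731 that meet the rule in both are red and the rest blue, and the points follow the line down to a lowest PH3 difference of 1.597.

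Motifs of the tubule regulators HNF1 and HNF4 were searched in promoters of marking genes, since Hnf4a is itself among the genes with the largest differences (below). RefSeq promoters of the GRCr8 assembly, from 250 bases before to 50 after the start, were held for 421 of the marking genes. The HNF1 motif GTTAATNA, on either strand, stood in 17 (4.04%) of them, against 170 (1.54%) of 11056 promoters of all measured genes and 2.59% of the 27457 promoters of the table. The HNF4 motif CAAAGTCCA stood in 5 (1.19%) against 39 (0.353%) of the measured genes. Among the 110 genes with a gap of 4 or more the counts were 10 (9.09%) and 4 (3.64%). The ESRR motif TCAAGGTCA stood in 0 of the 421, against 0.217% of the measured genes and 0.412% of the whole promoter table, and TATAAA in 47 (11.2%) against 8.39% of the measured genes and 14.3% of the table. Among the 110 genes with a gap of 4 or more, this last motif stood in 22 (20%) and the ESRR motif in 0. A higher share in those 110 was thus not particular to the HNF1 and HNF4 motifs. The longer palindromic form of the HNF1 motif stood in 0 of the 421 and 0 of the 110. All these counts are descriptions of letters, and genes that lie side by side are counted separately. The following 6 hold a motif and belong to genes with large gaps: Kap, and genes of the brush border, amino acid handling and acid secretion. They are a selection and not the 6 largest gaps. Mep1b (gap 7.15, 2 HNF1 motifs) and Aqp2 (5.94, 1 HNF1 motif) have larger gaps than Slc3a1 (5.86) and are not shown. Capitals mark the motif found, and the sequence runs 5′ to 3′ along the gene.
Kap, HNF1 motif at -147, chr4:168408983-168409282, minus strand: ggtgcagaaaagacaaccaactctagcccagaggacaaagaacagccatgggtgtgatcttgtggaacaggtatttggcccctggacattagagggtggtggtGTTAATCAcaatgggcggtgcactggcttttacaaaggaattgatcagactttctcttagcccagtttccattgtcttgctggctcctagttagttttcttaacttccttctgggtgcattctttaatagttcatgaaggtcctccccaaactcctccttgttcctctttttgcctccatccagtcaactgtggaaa
Cltrn, HNF1 motif at -132, chrX:34027075-34027374, minus strand: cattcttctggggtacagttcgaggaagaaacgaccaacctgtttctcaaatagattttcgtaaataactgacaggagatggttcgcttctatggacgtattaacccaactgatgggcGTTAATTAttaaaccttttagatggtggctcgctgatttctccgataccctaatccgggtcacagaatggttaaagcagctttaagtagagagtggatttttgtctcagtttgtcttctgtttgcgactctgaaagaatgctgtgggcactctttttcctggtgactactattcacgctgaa
Atp6v0a4, HNF1 motif at -62, chr4:67809043-67809342, minus strand: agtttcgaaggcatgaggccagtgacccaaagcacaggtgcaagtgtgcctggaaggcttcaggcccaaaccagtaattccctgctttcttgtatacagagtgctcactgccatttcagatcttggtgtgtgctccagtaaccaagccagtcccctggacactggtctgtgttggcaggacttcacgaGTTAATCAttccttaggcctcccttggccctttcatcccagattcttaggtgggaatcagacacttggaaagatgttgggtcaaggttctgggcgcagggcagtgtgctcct
Agxt2, HNF4 motif at -48, chr2:61063166-61063465, plus strand: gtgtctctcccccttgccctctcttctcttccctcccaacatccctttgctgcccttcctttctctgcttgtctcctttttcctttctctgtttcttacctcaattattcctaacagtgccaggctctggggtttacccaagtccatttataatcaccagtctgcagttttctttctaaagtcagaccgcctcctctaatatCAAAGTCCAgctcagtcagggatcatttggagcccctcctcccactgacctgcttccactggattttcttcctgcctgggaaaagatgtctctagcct
Pdzk1, HNF4 motif at -9, chr2:187064745-187065044, plus strand: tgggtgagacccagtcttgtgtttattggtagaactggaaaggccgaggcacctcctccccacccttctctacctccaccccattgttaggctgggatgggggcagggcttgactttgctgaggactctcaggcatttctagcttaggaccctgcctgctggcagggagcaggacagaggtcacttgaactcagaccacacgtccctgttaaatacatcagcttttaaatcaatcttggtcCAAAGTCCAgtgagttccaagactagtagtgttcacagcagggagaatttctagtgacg
Slc3a1, HNF4 motif at -89, chr6:15394700-15394999, minus strand: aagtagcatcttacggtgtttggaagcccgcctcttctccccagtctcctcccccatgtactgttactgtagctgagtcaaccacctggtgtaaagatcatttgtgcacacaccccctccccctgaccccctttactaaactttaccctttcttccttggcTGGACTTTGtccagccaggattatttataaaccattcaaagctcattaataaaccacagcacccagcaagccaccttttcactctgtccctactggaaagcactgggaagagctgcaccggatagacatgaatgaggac

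Proximal tubule carriers were nearly all higher in kidney: 27 of 28 measured, 15 of them marking (3.74% of all genes were), with a median difference of 5.45 against 0.03 for all genes. For this and each list below, the shares over all genes were 43.9% higher and 39.1% lower. Slc3a1, which pairs with Slc7a9 to take back cystine, read 13.17, 13.25 and 13.33 in kidney against at most 7.98 elsewhere, a difference of 7.02 ± 0.12. Slc7a9 itself read 8.68, 9.98 and 10.46 against at most 4.32. Slc22a2, the organic cation carrier of the basal membrane, differed by 7.08 ± 0.12, with kidneys at 11.15 to 11.89. Slc5a1, the sodium and glucose carrier of the gut and late proximal tubule, had the smallest positive difference named, 1.76 ± 0.08, and its kidney range of 5.01 to 6.17 overlapped other arrays. Slc34a1, the main phosphate carrier, gave opposite answers by probe set. Its brightest one differed by -1.19 ± 0.18 and was highest in blood at 7.35, while another differed by 8.31 ± 0.12 with a kidney mean of 12.34, and the third by 4.08 ± 0.07. Of its 3 probe sets 2 thus met the marking rule, and the list count above counts the gene as lower.

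Brush border and uptake genes followed the same pattern, with 18 of 19 higher and 16 marking and a median of 6.05. Besides Cltrn, Mep1a and Mep1b, the subunits of the membrane protease meprin, differed by 7.84 ± 0.06 and 7.56 ± 0.07. Mep1a read 11.13, 11.27 and 11.41 in kidney, against at most 4.77 elsewhere, a narrow range. Pdzk1, a scaffold of brush border carriers, differed by 7.49 ± 0.12 at 10.64 to 11.46. Dpep1, a membrane dipeptidase, was higher than the mean of the others (1.63 ± 0.09) yet lower than lung, which reached 8.63 against a kidney median of 7.13. Treh, trehalase, was the member not higher, at a difference of -0.15 ± 0.07 (adjusted p = 0.033, limma), with kidneys at 2.89 to 3.41, and without blood its difference was 0.04 (adjusted p = 0.35).

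Metabolic genes of the proximal tubule were higher in all 26 of 26 measured, with 19 marking and a median of 5.85. Agxt2, a mitochondrial aminotransferase, read 11.94, 12.30 and 12.57, and differed by 8.62 ± 0.15. Miox, which opens the ring of myo-inositol, read 12.49, 12.73 and 12.82 against at most 6.80 elsewhere. Fbp1, a control point of glucose making, read 12.59 to 13.12 and differed by 7.89 ± 0.25, although the Rat340 heart read 11.11. Ddc, which makes dopamine, was higher by 2.56 ± 0.13 but overlapped, since kidneys ran from 7.67 to 10.10 and another array read 9.17. A dimmer Ddc probe set was lower by 0.31 ± 0.08. Sardh, of choline breakdown, had the smallest difference of the list at 2.05 ± 0.08 on its brightest probe set. Its other probe set differed by 3.01 ± 0.10 and met the marking rule. Without the heart array of Rat340 at 24 h, 24 members of this list marked the kidney, Ass1, Hpd, Prodh2, Upb1 and Dpys being the additions, and 19 carriers did in place of 15.

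**Figure D3:**
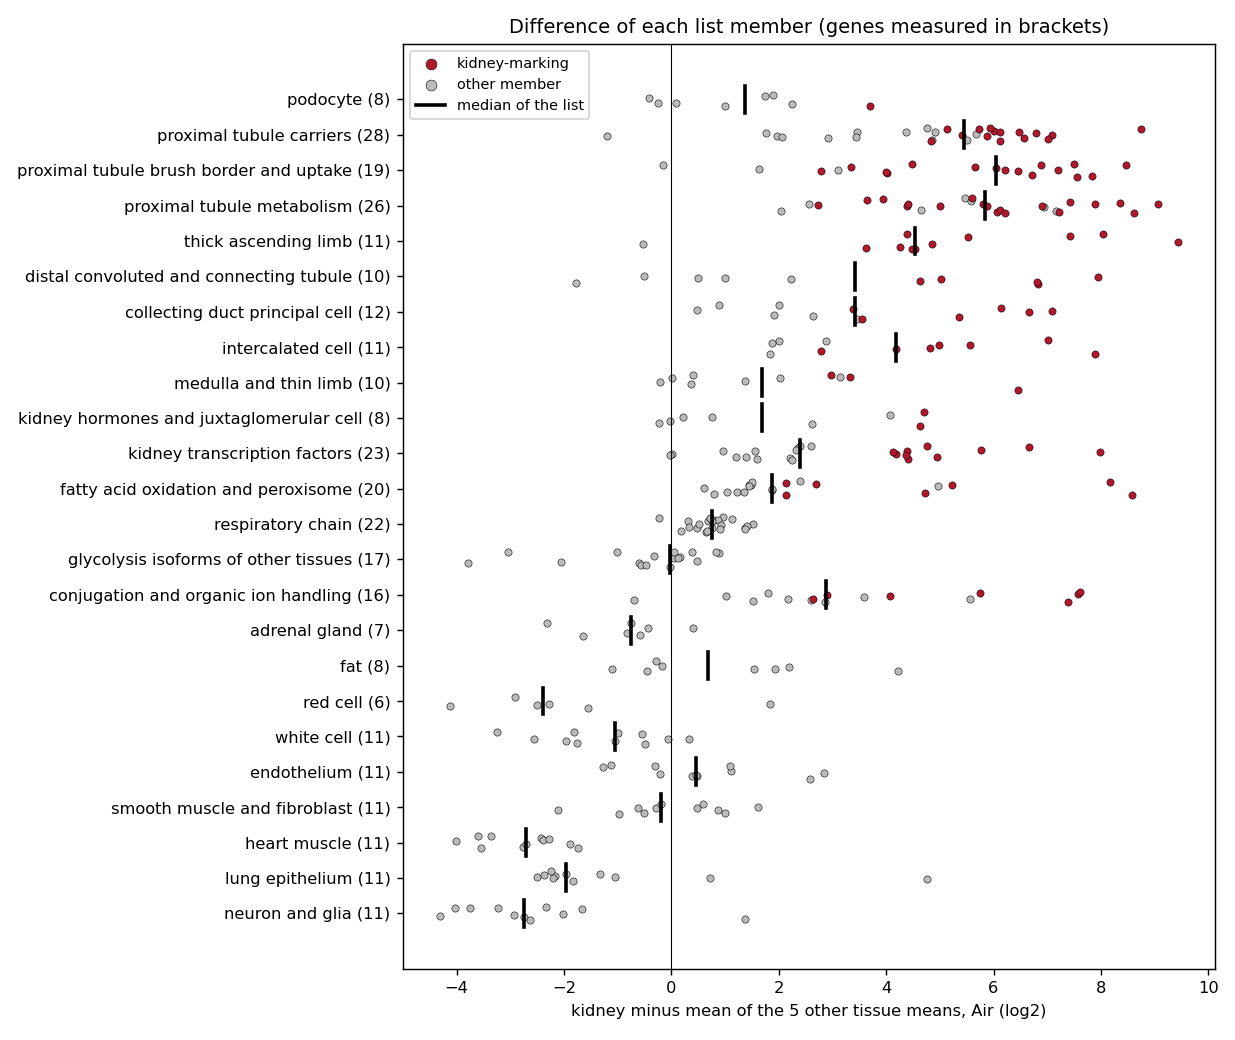
Kidney minus the mean of the 5 other tissue means (log2, Air) for every measured member of 24 gene lists; red points are kidney-marking, grey points are not, and the black bar is the list's median. Medians run from 6.05 for the brush border list to -2.75 for neuron and glia.

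The thick ascending limb list had 10 of 11 members higher and all 10 of these marking, with a median of 4.53. Kcnj1, the potassium channel that feeds Slc12a1, read 9.96, 10.40 and 10.75 in kidney against at most 3.74 elsewhere, a difference of 7.42 ± 0.05. Casr, the calcium-sensing receptor, read 8.64 to 9.36 and differed by 5.53 ± 0.08. Ptger3, a prostaglandin receptor, differed by 3.63 ± 0.09. Cldn14, a tight junction protein that closes the calcium path of this segment, was lower by 0.54 ± 0.08, at 2.98 to 3.73 against a blood mean of 5.92.

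Distal convoluted and connecting tubule genes were higher in 8 of 10 and marking in 5, with a median of 3.42. Klk1, tissue kallikrein, read 9.81, 11.09 and 11.60 and differed by 7.94 ± 0.07, with close copies in its family. Calb1, which carries calcium through the cell, read 11.43 to 12.25 in kidney, while brain stem followed at a mean of 9.28. Fxyd2, the gamma subunit of the sodium pump, differed by 6.81 ± 0.11, and Slc12a3, the carrier that thiazides block, by 5.02 ± 0.08. Pvalb, parvalbumin, was lower by 1.79 ± 0.09 with brain stem at 9.08, and Trpv5, a calcium channel, by 0.51 ± 0.08 on its brightest probe set while another of its 2 was higher.

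All 12 collecting duct principal cell genes were higher and 6 were marking, with a median of 3.41. Aqp2, the water channel that vasopressin moves to the membrane, read 10.37, 11.03 and 11.37 against at most 5.90 elsewhere, a difference of 7.10 ± 0.08. Hsd11b2, which keeps cortisol and corticosterone off the mineralocorticoid receptor, differed by 6.67 ± 0.10. Aqp3 differed by 6.15 ± 0.18 and Fxyd4 by 5.36 ± 0.08. The receptor gene itself, Nr3c2, differed by only 0.89 ± 0.10, with olfactory bulb at 7.87 beside a kidney median of 7.93. Elf5, a transcription factor of this cell, was higher by 0.48 ± 0.10 and lower than lung.

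All 11 intercalated cell genes, which secrete acid or base, were higher, and 7 marked the kidney (median 4.18). The proton pump subunits Atp6v1g3, Atp6v0a4 and Atp6v1b1 differed by 7.89 ± 0.08, 7.01 ± 0.15 and 5.55 ± 0.09. Foxi1, the factor that specifies these cells, read 7.76, 8.12 and 8.65 against at most 4.85. Slc4a1, the anion exchanger shared with red cells, was higher than the mean of the others by 1.83 ± 0.13, but blood stood at 11.97 against a kidney median of 8.24. Hepacam2 differed by 1.87 ± 0.10 and fell short of the limit of 2.

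Podocyte genes were the least distinct of the segment lists: 5 of 8 were higher, 2 lower and 1 marking, with a median of 1.37. Nphs1, nephrin of the slit diaphragm, read 5.78, 6.97 and 7.56 against at most 4.59 elsewhere, a difference of 3.71 ± 0.09. Wt1, a podocyte and mesothelial factor, was higher than the mean of the others by 2.26 ± 0.08, but heart was higher still at 7.15 against a kidney mean of 6.63. Podxl, which podocytes share with endothelium, and Tcf21 differed by 1.90 ± 0.10 and 1.74 ± 0.11, and lung exceeded kidney in both. Synpo and Plce1 were lower by 0.42 ± 0.07 and 0.26 ± 0.07. Plce1 changed direction, to 0.09, when heart was left out.

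Of the medulla and thin limb genes, which include carriers and enzymes of osmolytes, 8 of 10 were higher, 1 lower and 3 marking (median 1.69). Cldn8 differed by 6.45 ± 0.06, Slc5a3, the myo-inositol carrier, by 3.32 ± 0.13, and Cldn4 by 2.97 ± 0.08. Aqp1, the water channel of proximal tubule and descending limb, was higher by 3.13 ± 0.13 with all 16 kidneys between 12.37 and 12.70, but red-cell-rich blood was close at 12.30. Akr1b1, which makes sorbitol, differed by 0.02 ± 0.06 (adjusted p = 0.78, limma) and took the opposite sign after quantile normalization. Bdkrb2, a bradykinin receptor, was lower by 0.21 ± 0.07, but its difference was 0.096 without blood.

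Hormone and receptor genes were higher in 6 of 8 and marking in 2. Pth1r, the parathyroid hormone receptor, read 10.53 to 11.21 and differed by 4.70 ± 0.08. A dimmer Pth1r probe set differed by 0.19 ± 0.09 and was not called, with a kidney mean of 4.53 under blood at 5.87. Kl, klotho, the co-receptor of FGF23, read 8.08 to 8.74 and differed by 4.63 ± 0.11. Agtr1a, an angiotensin receptor, was higher by 4.08 ± 0.13, but lung reached 8.99 beside a kidney median of 9.36. Vdr, the vitamin D receptor, was higher by 2.62 ± 0.09 with a kidney range of 5.66 to 6.61 that touched another array at 5.67. Epo, erythropoietin, differed by -0.02 ± 0.06 (adjusted p = 0.76) with kidneys at 2.81 to 3.31, and without blood it was higher by 0.14 (adjusted p = 8.1e-05, limma).

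Kidney transcription factors were higher in 21 of 23, with 10 marking and a median of 2.40. Hnf4a, the proximal tubule regulator, read 11.10, 11.43 and 11.66 and differed by 7.98 ± 0.18, and all 3 of its probe sets marked the kidney. The Rat340 heart read 9.03 and no other array outside kidney more than 5.17. Hoxd8 and Hoxd10, axial patterning genes of the posterior body, differed by 6.67 ± 0.22 and 5.78 ± 0.07. Nr1h4, the bile acid receptor FXR, differed by 4.95 ± 0.12. Hoxd3 (0.02 ± 0.07) and Ppara, a regulator of fatty acid burning (-0.03 ± 0.11), were not called. Another Hoxd3 probe set was higher by 0.34 ± 0.09, and Ppara was higher by 0.32 without heart.

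**Figure D4:**
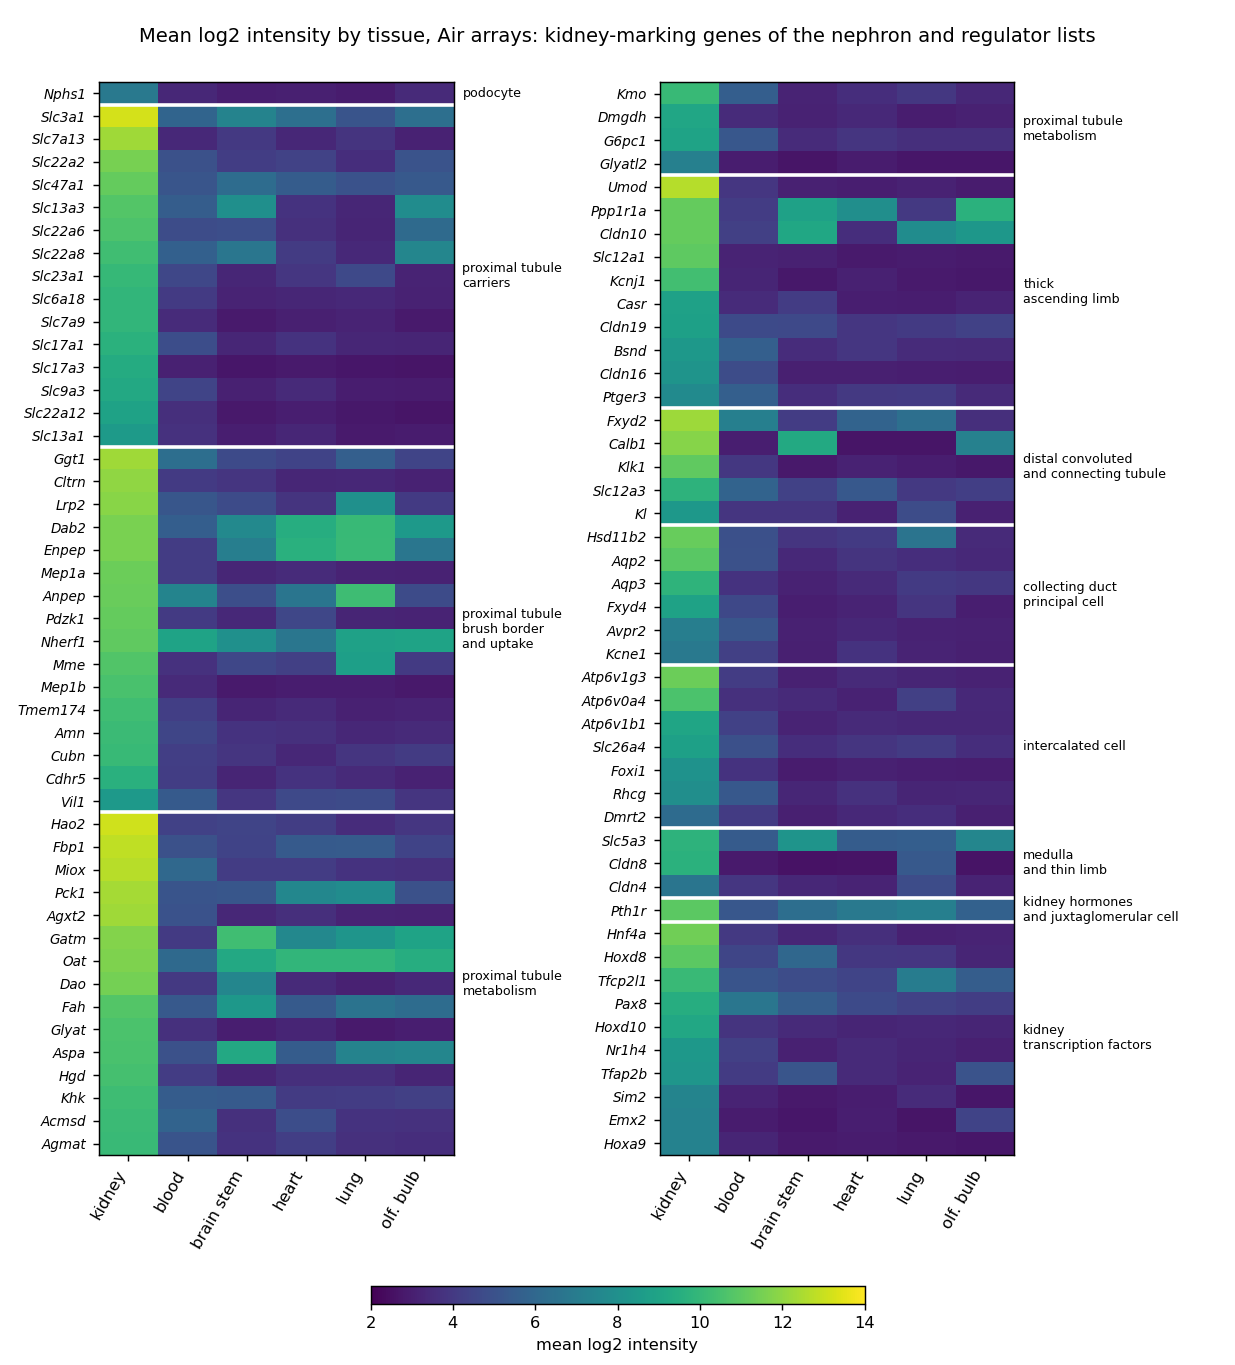
Mean log2 intensity in 6 tissues (columns, Air arrays) for the kidney-marking genes of the segment and transcription factor lists (rows, grouped by list), on a colour scale from 2 to 14. Kidney is the highest column in every row by the marking rule, and another tissue comes close for some, such as lung for Dab2 (10.10 against 11.59) and brain stem for Gatm (10.33 against 11.78).

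Fatty acid oxidation and peroxisome genes were higher in all 20 of 20, with 7 marking and a median of 1.88. Cyp4a8 and Acsm2, a medium-chain acyl-CoA ligase, led with 8.58 ± 0.09 and 8.16 ± 0.10, and Acsm3 followed at 5.23 ± 0.12. Hadha and Hadhb, the trifunctional protein of mitochondria, differed by only 0.80 ± 0.04 and 0.60 ± 0.06, and heart exceeded kidney in both. Respiratory chain genes were higher in 21 of 22, but none marked the kidney and the median was 0.76. Sdha, of complex II, read 11.67, 11.81 and 11.96 in kidney while heart averaged 12.02. Cox5a, the member not called, differed by -0.24 ± 0.15 (adjusted p = 0.15, limma). Glycolysis isoforms of other tissues were split, with 5 of 17 higher and 8 lower, beside 43.9% and 39.1% of all genes. Aldoc and Eno2, brain forms, were lower by 3.79 ± 0.09 and 3.04 ± 0.08, while Tpi1 and Ldhb were higher by 0.84 ± 0.05 and 0.89 ± 0.15, with heart above kidney in both. Conjugation and organic ion genes were higher in 15 of 16 and marking in 7, led by Slco1a1, Nat8 (7.57 ± 0.13), Cyp2c23, which makes epoxides of arachidonic acid (7.38 ± 0.26), and Fmo4 (5.74 ± 0.08). Nat8 acetylates cysteine conjugates and has close copies beside it, and Gstm1, a glutathione transferase, was lower by 0.70 ± 0.12.

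None of the genes listed for other cells or tissues met the marking rule. Of the 7 adrenal genes measured, 6 were lower and Cyp21a1 was at 3.84 to 4.61 in all 16 kidneys. Heart muscle genes were lower in 11 of 11, lung epithelium in 9 of 11 and neuron and glia in 10 of 11. Heart, lung, blood and the 2 nervous tissues are themselves in the mean compared. Lower calls and a lack of marking members among their own genes therefore follow from the contrast. Ager, of the lung list, differed by -2.37 although its kidney mean of 5.03 was level with brain stem (5.03) and above olfactory bulb (4.93). Napsa, an aspartic protease of lung and proximal tubule, was one of the lung list's exceptions, higher by 4.75 ± 0.09 with kidneys at 10.67 to 11.71 and lung next at 11.20. Abca3 and Aqp4 were higher than the mean by 0.71 and 1.36 but under lung and brain stem. Ager, Napsa, Abca3 and Aqp4 were chosen after their values were seen. White cell genes were lower in 9 of 11, with Lyz2, a macrophage lysozyme, higher than the mean by 0.32 ± 0.08 but under lung, and of opposite sign (-0.04) without brain stem. Red cell genes were lower in 5 of 6, Slc4a1 being the exception. Endothelial genes were mixed, at 7 of 11 higher and 4 lower, beside 43.9% and 39.1% of all genes. Emcn, of capillary and venous endothelium, read 9.91, 10.05 and 10.29 while lung averaged 10.61. Smooth muscle and fibroblast genes had 5 of 11 higher and 5 lower, near the shares over all genes, with a median of -0.19. Dcn, a fibroblast proteoglycan, was higher by 1.62 ± 0.11 with heart above at 11.99, while Lum, a related proteoglycan, differed by -2.11. Fat genes were higher in 4 of 8 and lower in 3, also near those shares, with a median of 0.68. Plin4, a lipid droplet coat protein, had the lowest difference at -1.10. Cidec, a lipid droplet protein of fat and liver, was higher by 4.22 ± 0.29, at 8.01 to 9.02, with a lung at 8.90 and a heart at 8.69, and a heart SD of 2.14.

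Kidney-low genes numbered 38 (0.283% of genes). Npy, neuropeptide Y, read 4.10, 4.996 and 5.95 in kidney, while the lowest other array read 7.21 and the lowest other tissue, heart, averaged 8.24. Its difference was -5.28 ± 0.13, and blood was the highest tissue at 12.61. Epdr1, an ependymin-related protein, read 2.97 to 3.91, under the lowest other array at 5.37, a difference of -5.21 ± 0.08. Tmcc2, Tmod1, a cap of actin pointed ends, Satb1, a chromatin organizer of T cells, and Tppp3, a microtubule protein, differed by -4.32, -4.13, -3.13 and -4.55. In each the other 5 tissues all lay above kidney, whatever their own order. In proportion, the count of kidney-low probe sets moved more than the marking count when a tissue was left out, to 273 without blood. Marking probe sets numbered 860 without brain stem, 1025 without heart, 1078 without lung and 834 without olfactory bulb. Without blood there were 834, with 741 of the 798 among them. After quantile normalization there were 714, with 699 of the 798 among them.

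Between the 4 times the kidney arrays gave 0 calls in the F test (limma, adjusted p under 0.05, 4 kidneys a time), with 1629 probe sets (5.25%) at an unadjusted p under 0.05 and a smallest adjusted p of 0.1959. Among the marking probe sets 69 (8.65%) had an unadjusted p under 0.05. Of the marking genes, Alx1 had the smallest unadjusted p (3.4e-05 over 16 kidneys, from limma), with means of 6.33, 6.10, 5.42 and 5.12 at 1, 3, 6 and 24 h. Aqp2 averaged 11.24, 11, 10.95 and 10.55, and Zfp354a, a zinc finger repressor of kidney, 9.61, 9.73, 10.38 and 9.98. Slc30a1, a zinc exporter, averaged 7.92 at 1 h and 7.42 to 7.56 later. None passed the adjustment. With the 3 kidneys high in liver markers left out, 1 unnamed probe set, not a marking one, was called.

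The 16 kidneys differed little in most marking probe sets, with a median SD of 0.21 against 0.17 over all probe sets, but 34 had an SD over 0.5. Among marking genes, Akr1c1, Fam151a, Klk1c9, Slc13a1, Slco4a1 and G6pc1 had the widest spread, with SDs of 0.76 to 0.98. Some genes that did not meet the marking rule were wider, such as Slc5a2 with an SD of 1.84 and Slc7a7 with 1.26. Slc5a2, the sodium and glucose carrier of the early proximal tubule, read 4.40, 5.53 and 5.28 in the kidneys of Rat345, Rat355 and Rat365 and 8.48 to 10.11 in the other 13. It was chosen after its values were seen. Slc7a7, the basolateral cationic amino acid carrier, read 6.87, 8.72 and 7.19 in the same 3 and 10.05 or more in the others, and Nox4, an oxidase, 6.92, 7.60 and 7.08 against 8.18 or more. Slc7a7 and Nox4 were likewise chosen after their values were seen, so the separation in these genes follows from the choice. Fam151a also read lowest in the 3, at 6.615, 9.039 and 8.195 against 9.423 or more. G6pc1, Slc22a8 and Slc13a1 overlapped. In these Rat355 read 8.389, 9.912 and 8.532, above Rat352 (7.998), Rat394 (9.836) and Rat352 (7.019) in turn. Deviations were taken from each gene's median over the 16 kidneys and averaged over a list. Over the 26 carrier genes with kidney as the highest tissue, these 3 kidneys deviated by -1.08, -0.52 and -0.76, and the next kidney by -0.19. This list holds Slc5a2 and Slc7a7 themselves. Over the metabolism list the same 3 were also the lowest, at -0.47, -0.19 and -0.24. Over the brush border list they deviated by -0.21, -0.06 and 0.0031, and Rat345 alone lay clear of the other kidneys. In the same order the 3 deviated by 0.26, 0.19 and 0.24 over the thick ascending limb list, where Rat354 read 0.22. For principal cell genes the values were 0.37, 0.25 and 0.22, and for intercalated genes 0.28, 0.16 and 0.24. Rat345 was the highest kidney in each of these lists. In the distal convoluted and medulla lists Rat365 was the highest, at 0.25 and 0.35, while Rat355 read 0.07 and 0.04. The kidney of Rat345 also held the most liver transcript, with Alb at 12.93. The other 2, Rat355 and Rat365, had Alb at 3.71 and 5.33. Slc7a13, Kap and Umod did not set the 3 apart: Kap read 13.59, 13.62 and 13.63 in them. What set these 3 apart was not tested. Without these 3 kidneys 861 probe sets marked the kidney, 791 of the 798 among them.

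**Figure D5:**
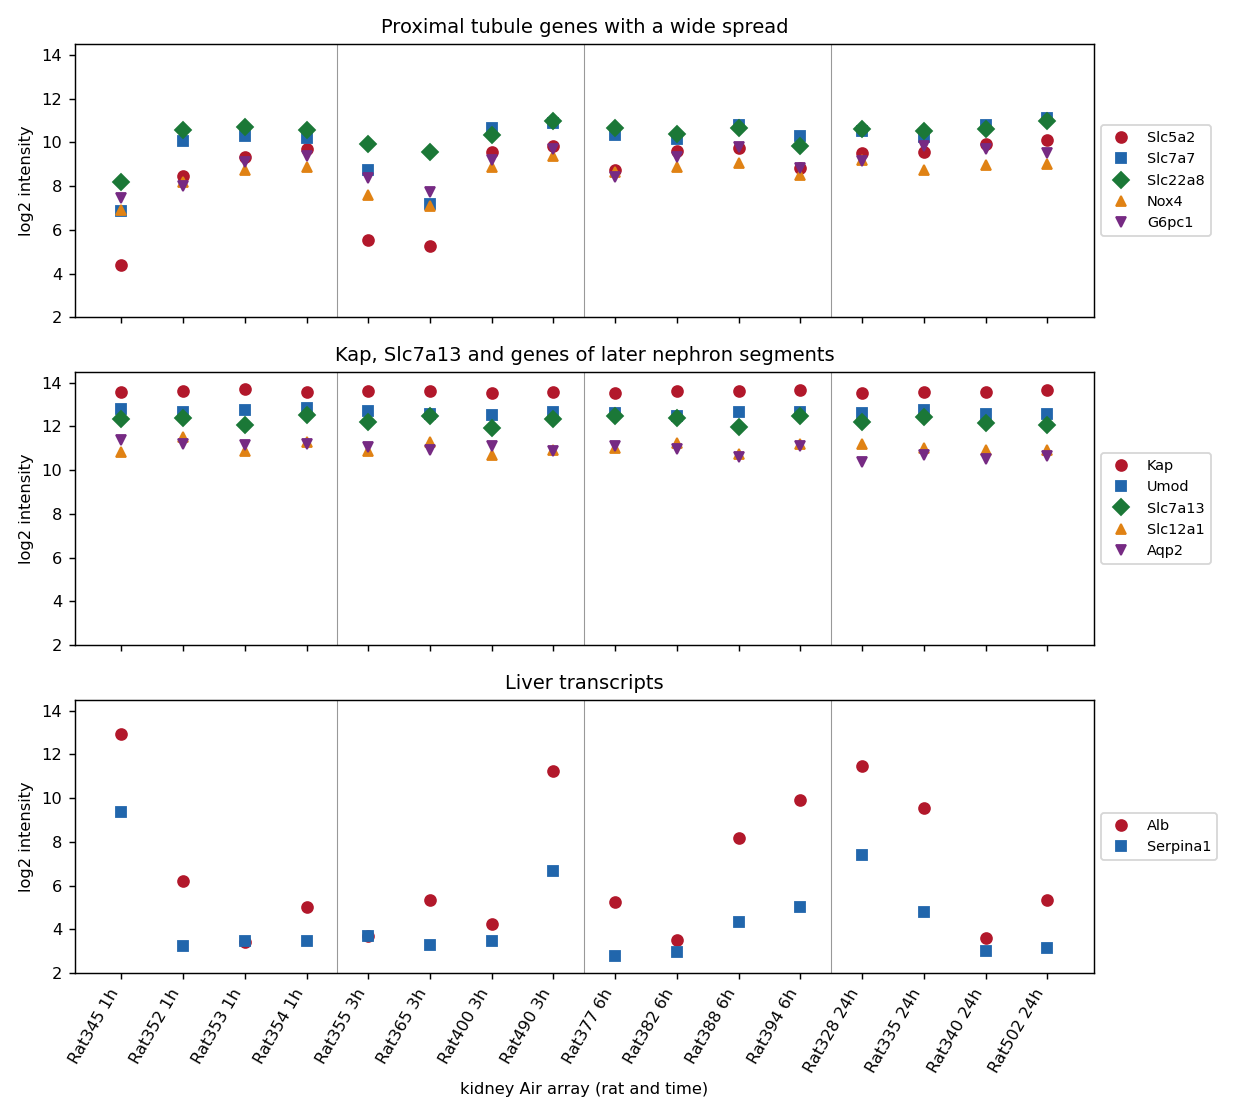
Log2 intensity in each of the 16 kidney Air arrays (horizontal, rat and hour after exposure; grey lines part the times) for 5 proximal tubule genes (top), Kap, Slc7a13 and 3 genes of later segments (middle) and 2 liver transcripts (bottom). Rat345, Rat355 and Rat365 drop in Slc5a2 to 4.40, 5.53 and 5.28 while Kap, Slc7a13 and Umod do not, and Alb is highest in Rat345 at 12.93.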

How the data were processed

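RNA of 192 rat tissue samples was hybridised to Affymetrix 3′ expression arrays. The authors deposited log2 intensities per probe set; RMA and Partek are named, without a version, per the submitters' processing notes, and whether all tissues were normalized together is not stated. No counts exist for arrays, so the number of arrays limits the precision. Of 31139 probe sets, 97 controls were left out. Genes were named from the platform annotation: 19063 probe sets name 1 gene, 572 several and 11407 none here, and a gene was read at its brightest probe set (502 genes mark the kidney). Near copies (Nat8, Cyp4a, Akr1c, Slco1a, Klk1) may share probes.

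The 96 Air arrays were fitted with limma 3.58.1 in R 4.3.3, with 1 coefficient per tissue, and the PH3 arrays alike; the fit was tested on simulated data. The F test over times used the 16 kidneys. Most rats gave several tissues, 14 of 16 kidney rats a blood array and 6 an olfactory bulb array, so rat numbers pair the samples by animal. Deviations of the same rat correlated with kidney at a median of 0.16 in lung, 0.11 in brain stem, 0.07 in heart, 0.04 in blood and 0.00 in olfactory bulb (-0.000237). Members and gene lists were chosen with earlier results of these data known. Named genes were the 10 with the largest gap, up to 4 with the largest difference and 2 with the lowest per nephron, regulator and metabolism list, 6 kidney-low, 6 by time, 6 by SD, and the member with the highest kidney mean per list of other cells; Slc5a2, Slc7a7 and Nox4 were added after their values were seen. Alternatives left out kidneys, tissues or doubted arrays, kept single times, or changed the scaling, the filter, the gap or the probe set; the closing section gives their effect.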

Additional observations from a re-analysis of the deposited data

Results flagged for a closer look

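Each named gene was examined for a kidney that stood apart from the other 3 of its time. Of 468 such tests 30 (6.41%) were past Dixon's limit. The rate of about 1 in 20 given by chance is no measure for this share. Some of the genes were chosen for their spread or their time means over these same kidneys, Klk1c9 and Nat8f5 among them. Slc7a7 was added after its values were seen, so its flag in Rat345 follows from that choice. The kidney of Rat345 (1 h) had 5: Acsm2 at 10.85 (nearest other 11.51), Slc7a7 at 6.869, Slc7a9 at 8.68, Ddc at 7.766 and, as the highest, Aqp2 at 11.37. Rat340 (24 h) had 4, with Klk1c9 at 3.697, Nat8f5 at 8.272 and Atp6v0a4 at 10.29 low and Treh at 3.405 high. Rat388 (6 h) had 4, with Ddc at 9.982 and Hoxd3 at 4.591 high and Slc7a13 at 11.96 and Wt1 at 5.926 low. Rat365 (3 h) had 3, with Elf5 at 4.789 and Foxi1 at 8.648 high and Nat8f3 at 10.05 low. At 1 h, Rat352 was low in Fxyd2 at 11.6 and Hoxd8 at 9.857, Rat354 was low in Trpv5 at 4.38, and Rat353 was high in Ndufa1 at 12.0. At 3 h, Rat490 was low in Emcn at 9.91. At 6 h, Rat394 was high in Slc5a3 at 10.04 and Mep1a at 11.38, Rat382 was high in Agtr1a at 9.769 and low in Treh at 2.886, and Rat377 was low in Fxyd4 at 8.357. At 24 h, Rat335 was high in Emcn at 10.24 and low in Pdzk1 at 11.29, Rat328 was high in Slc5a3 at 10.07, and Rat502 was high in Acsm3 at 9.291.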

How the results depend on the processing

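With the rat as a replicate block, 10337 probe sets were higher, 14209 lower, 798 marking and 52 kidney-low, so the paired fit changed no count of calls by over 1.5 times. Leaving out each kidney in turn gave 792 to 828 marking (2.55% to 2.67% of all tested), 48 to 55 kidney-low, 10205 to 10303 higher and 13902 to 14086 lower. The share of calls that were higher was 42.1%, and 60.4% over the brighter 50% of probe sets. That filter tests fewer probe sets and left 5183 lower and 461 marking (1.49% of all tested), with members higher numbering 3 for podocyte, 10 for proximal carriers, 9 for brush border, 13 for proximal metabolism, 2 for thick ascending limb, 4 for distal tubule, 3 for principal cell, 2 for intercalated cell, 5 for medulla, 3 for hormones, 5 for transcription factors, 0 for adrenal gland and 2 for fat. A gap of 2 left 1.58% of all tested as marking and 16 kidney-low. Kidney-low probe sets numbered 273 without blood, 110 without heart, 97 without lung, and 98, 91, 89 and 86 at 1, 3, 6 and 24 h alone; at 3 h alone 9322 were lower. Glycolysis members higher numbered 3 after quantile normalization and at 6 and 24 h alone, and 8 without heart. Without blood, 2 white cell, 4 endothelial, 2 smooth muscle and fibroblast and 0 neuron and glia members were higher; the last was also 0 by the median over probe sets. White cell members higher numbered 2 without lung and 0 without brain stem, heart or olfactory bulb or at 3 or 24 h alone, and adrenal members 0 at 3 and 6 h alone. The F test over times called 1 without arrays above 6 in liver markers. By probe set, Slc34a1 (-1.19 against 8.31 and 4.08), Trpv5 (-0.51 against 0.78) and Ddc (2.56 against -0.31) were called in opposite directions, and Slc5a3 differed by 3.32 and by -0.13 (adjusted p = 0.052, limma). Hadha (0.80 against -0.12 and -0.04) and Akr1b1 (0.02 against -0.34) also differed in sign between probe sets. Under the other alternatives, genes whose difference changed sign were Akr1b1 (-0.1628 quantile normalized, -0.1988 without blood, -0.3314 at 24 h alone), Bdkrb2 (0.09555), Epo (0.1421) and Treh (0.04157) without blood, Lyz2 (-0.04248 without brain stem, -0.04886 without olfactory bulb), Plce1 (0.08741) and Ppara (0.3164) without heart, and Ppara in PH3 arrays (0.3836). Apart from fewer probe sets or arrays, the cause was not tested. The alternatives without doubted arrays were chosen after seeing the data.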

Other observations

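Of the marking genes, 395 stood on none of the lists. Those with the largest gaps, chosen after their values were seen, include Slco1a6 (gap 7.27), Gba3, a cytosolic beta-glucosidase (7.19), Rgn, regucalcin (7.14), Lrrc19 (7.11), Cdh16, the kidney cadherin (7.09), Tinag, of tubule basement membrane (7.02), and Tff3, a trefoil peptide (6.79). By family, solute carriers held 46 marking genes of 284 measured (16.2%), claudins 6 of 17 (35.3%), Hox genes 6 of 23 (26.1%) and cytochrome P450 genes 3 of 55 (5.45%), beside 3.74% of all genes. Of 8 Ugt genes and 40 genes with symbols starting Nduf, 0 marked the kidney. Of the latter 34 (85%) were higher, beside 43.9% of all genes.

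Marking genes lay beside each other on chromosomes in places. Of 501 placed in GRCr8, 80 (16%) had a marking gene as next measured neighbour, against 6.89% of the other 12881 genes. Runs of 4 were Akr1e2, Akr1c1, AKR1C3l1 and Akr1c13, and Ust5r, Slc22a25, Slc22a8 and Slc22a6. Runs of 3 included Hoxd10, Hoxd9 and Hoxd8, and Slco1a1, Slco1a3 and Slco1a6. Several runs are near copies whose probes may be shared, and that share was not tested.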
